A study of Mus musculus with 18 samples.

Results

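The miR-34 family was measured as 4 rows of the mature miRNA table, out of 583 rows in all: miR-34a, miR-34b-5p, miR-34b-3p and miR-34c. They were taken by name (number 34a, 34b or 34c), and the row miR-34c*, the other arm of the miR-34c hairpin, was kept apart as a comparison. The RNA came from mammary tumours of 18 strains, each an F1 cross of 1 AKXD recombinant inbred strain (AKR/J by DBA/2J) with FVB/N-TgN(MMTV-PyVT)634Mul mice, so that every group carries the polyoma middle T transgene, driven by the mouse mammary tumour virus promoter, over a shared FVB/N genome. Tumour RNA was pooled within a strain and sequenced as 1 small RNA library, so each strain is a group with n = 1, no difference between strains has a replicate check, and in any spread over strains the effects of strain, pool and library cannot be told apart. The ages of the mice and the number of tumours in a pool were not given in the sources used here. In such bulk RNA, fewer cells that express a miRNA and less of it per cell cannot be told apart.

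miR-34 miRNAs are known as direct transcriptional targets of p53. They lower proteins of cell cycle entry and survival, such as the cyclin-dependent kinases Cdk4 and Cdk6, the receptor Met and the apoptosis inhibitor Bcl2. They come from separate transcripts: miR-34a has a gene of its own and is found in most tissues, whereas miR-34b and miR-34c share a primary transcript that is best known from testis, brain and multiciliated epithelium. The miR-449 miRNAs, also of multiciliated cells and testis, have the same seed, the stretch of bases 2 to 8 by which a miRNA pairs with its targets.

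The mature sequences, from RefSeq with the GRCm38.p6 build, are shown because both arms of the chromosome 9 hairpins were counted and the arms fall into separate seed groups; capitals mark the seed. Of the 4 rows, 3 had a mature sequence in the RefSeq table, and miR-34c was the other.
miR-34a: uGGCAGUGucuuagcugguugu
miR-34b-5p: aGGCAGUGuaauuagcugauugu
miR-449a: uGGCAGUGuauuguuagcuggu
miR-34b-3p: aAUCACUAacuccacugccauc
miR-34c*: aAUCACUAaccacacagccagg
The seed GGCAGUG was held by 4 of 1679 mature mouse miRNAs in that table (0.238%), namely miR-34a-5p, miR-34b-5p, miR-449a-5p and miR-449c-5p. The sequence of the miR-34c row is missing there, so it could not enter this count, and its absence does not mean another seed. The seed AUCACUA was held by 2 (0.119%), miR-34b-3p and miR-34c-3p, the current name of miR-34c*. Set side by side without gaps from the 5′ end, miR-34a and miR-449a were identical at 15 of 22 positions, and the 3p arms of the neighbouring hairpins at 17 of 22. miR-34b-5p is 23 bases long and miR-34a 22, so an ungapped count is offset over part of their length: it gave 11 of 22 from the 5′ end and 12 of 22 from the 3′ end. miR-34b and miR-34c are close paralogues, so the split of reads between their rows is uncertain to the extent that the counting shared reads.

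In GENCODE M21 (GRCm38), Mir34a is a 102-base gene on the plus strand of chromosome 4 (150068454 to 150068555) whose last 17 bases overlap an exon of Gm37795, a + strand transcript of biotype TEC. Mir34c (51103034 to 51103110) and Mir34b (51103562 to 51103645) lie 451 bases apart on the minus strand of chromosome 9, both within an intron of Btg4, a gene on the opposite strand. The deposited table carries no coordinates, and the submitters' build was mm9.

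Levels are given as CPM, the usual read count relative to the total miRNA reads of a library, after each library was scaled by a factor of its own, the lowest 0.671 (strain 14) and the highest 1.67 (strain 28). The libraries held 4357337 to 14946546 reads. The epithelial miRNAs miR-200a, miR-200b, miR-200c, miR-141 and miR-429 summed to between 28506 and 54678 CPM in every pool. On the first principal component, which held 27.6% of the variance of the 281 miRNAs that averaged 10 CPM or more, strains 10, 13, 14 and 20 stood lowest, at -7.04 or below, and strain 23 followed at -2.53. The spreads of miR-34b-5p and miR-34c, counts of correlated miRNAs and some correlations are also given without these 4 libraries. The range of miR-34a and the sums of cell type miRNAs are given only with them.

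miR-34c was by far the most abundant miR-34 miRNA in these tumours, miR-34a followed, and both arms of miR-34b were near the limit of counting. miR-34a averaged 81.5 ± 29.5 CPM (SD over strains, n = 18) and miR-34c 660.8 ± 479 CPM. miR-34b-5p averaged 3.38 ± 1.26 CPM, from 10 to 68 reads a library, and miR-34b-3p 1.35 ± 0.840 CPM, from 3 to 48 reads. The median rank among the 571 distinct rows, from the most abundant down, was 152 for miR-34a and 78 for miR-34c, against 333 for miR-34b-5p and 377 for miR-34b-3p. miR-34a and miR-34c passed the filter of 10 CPM, and the 2 arms of miR-34b did not.

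miR-34a, the member linked most widely to p53, was highest in 3 pools: strain 9 had 165 CPM, strain 7 had 139 CPM and strain 3 had 107 CPM. The next 5 pools lay close together, with 88.5 CPM in strain 28, 87.5 CPM in strain 27, 80.8 CPM in strain 21, 78.0 CPM in strain 11 and 76.3 CPM in strain 18. Strain 23 had 75.9 CPM, strain 25 had 73.3 CPM, strain 13 had 71.3 CPM, strain 2 had 69.4 CPM, strain 10 had 66.7 CPM and strain 16 had 66.3 CPM. These pools form a nearly flat middle. The lowest pools were strain 24 with 63.1 CPM, strain 22 with 61.7 CPM, strain 20 with 57.9 CPM and strain 14 with 40.5 CPM, so that the highest pool was 4.08 times the lowest. Strain 9 was highest and strain 14 lowest under each of 4 library scalings, but the second pool was strain 7 under 3 of them and strain 28 (148 CPM) under total counts alone. In the order of levels, 13 of 17 neighbouring pairs had overlapping 95% Poisson intervals (exact, from read counts, covering counting error only). The 4 steps beyond them were those just below strains 9, 7 and 3 and the one just above strain 14. The SD was 0.45 on the log2(CPM + 1) scale, 8.53 times the SD from read counting (0.05), and 0.27 without strains 3, 7 and 9.

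miR-34c was set apart by 2 pools. Strain 23 had 2395 CPM from 26396 reads, and strain 13 had 1256 CPM. The other 16 pools lay between 355 and 670 CPM, with strain 24 at 670 CPM, strain 14 at 635 CPM, strain 28 at 633 CPM, strain 7 at 620 CPM, strain 10 at 613 CPM and strain 20 at 603 CPM, then strain 22 at 578 CPM, strain 21 at 578 CPM, strain 9 at 511 CPM, strain 2 at 501 CPM and strain 25 at 480 CPM. A lower set was made of strain 11 with 374 CPM, strain 18 with 368 CPM, strain 16 with 367 CPM, strain 3 with 356 CPM and strain 27 with 355 CPM. The highest pool was 6.75 times the lowest and 1.91 times the second, and 12 of 17 neighbouring pairs overlapped in their Poisson intervals. Strain 23 was highest under each of 4 library scalings, by 1.86 to 2.00 times the second pool. The second was strain 13 under 3 of them and strain 28 under total counts alone.

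**Figure D1:**
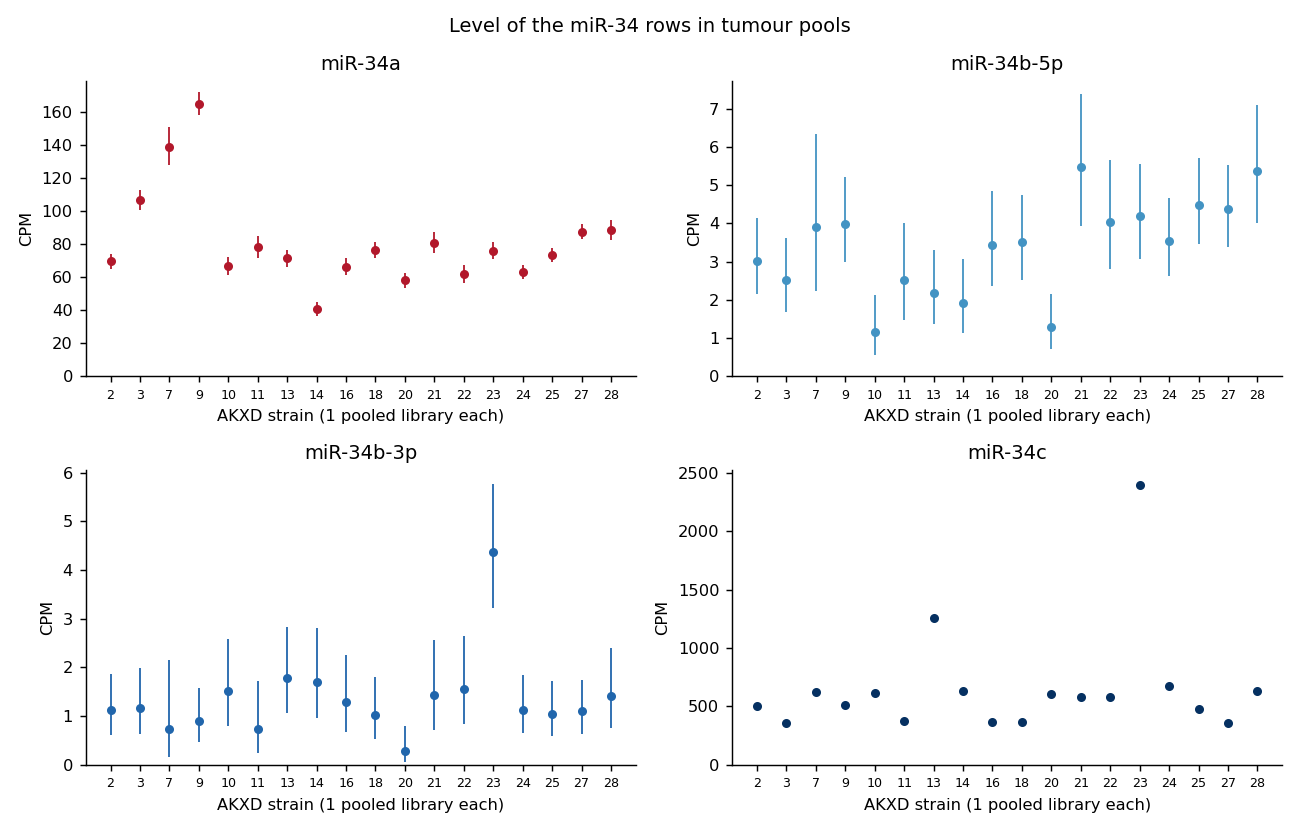
Level in CPM (linear axes from 0) of miR-34a, miR-34b-5p, miR-34b-3p and miR-34c in each of 18 tumour pools; bars are exact 95% Poisson intervals of the read counts and hold no biological error. miR-34a is highest in strains 9, 7 and 3 (165, 139 and 107 CPM), while miR-34c and miR-34b-3p are highest in strain 23 (2395 and 4.36 CPM).

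The spread of the 2 abundant members over the panel was set beside that of other miRNAs. The SD of miR-34a, 0.45 log2, exceeded that of 15 of the 40 tested miRNAs nearest to it in mean level, whose median SD was 0.54. The SD of miR-34c, 0.68 log2, exceeded that of 38 of its 40 nearest, whose median was 0.40, and that of 81.1% of all 281. Without strain 23 it was 0.46, and without strains 13 and 23 it was 0.35. The median SD of all tested miRNAs was 0.45. No test of these spreads was run.

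Within a library, the reads of miR-34a and of the chromosome 9 locus can be set against each other without any scaling. Over all libraries 139642 reads fell on the 4 rows, 10.9% of them on miR-34a. miR-34a took the smaller part in 18 of 18 pools: the log2 ratio of miR-34a reads to the summed reads of miR-34b-5p, miR-34b-3p and miR-34c was -2.91 ± 0.87 (SD, n = 18; two-sided sign permutation p = 2e-05, 100000 resamples). Library chemistry captures individual miRNAs unequally, so the ratio compares reads and not molecules. miR-34a made up 24.2% of the family's reads in strain 9 (95% Wilson interval 23.4 to 25.1%) and 22.9% in strain 3. It made up 5.97% in strain 14, 5.35% in strain 13 and 3.06% in strain 23 (2.86 to 3.27%), and the median pool had 12.1%. The chromosome 9 locus thus gave 3.12 times the reads of miR-34a in strain 9 and 31.7 times in strain 23. In strain 23, with the highest of these folds, miR-34c was the highest of all pools and miR-34a (75.9 CPM) was near its median of 74.6 CPM. In strain 9, with the lowest, miR-34a was the highest of all pools and miR-34c (511 CPM) was below its median of 578 CPM.

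**Figure D2:**
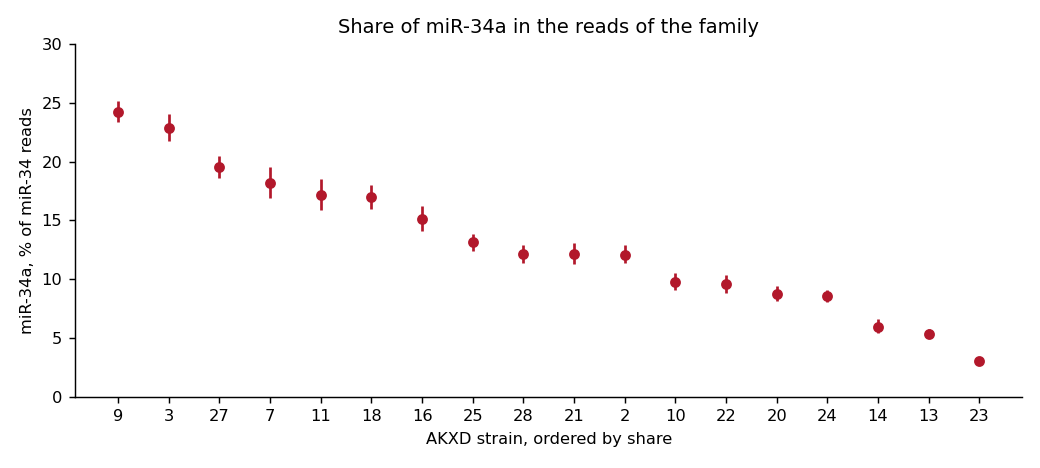
Share of miR-34a in the reads of the 4 miR-34 rows (%), 1 point per strain in falling order, with 95% Wilson intervals that cover counting error only. The share is 24.2% in strain 9 and 3.06% in strain 23.

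Levels of miR-34a and miR-34c over the strains gave no correlation past the threshold. Spearman rho was -0.30 (permutation p = 0.224; adjusted p = 0.51 by Benjamini-Hochberg over 280 miRNAs correlated with miR-34a) and Pearson r was -0.14 (permutation p = 0.55; adjusted p = 0.766). With strains 7 and 9, the 2 most distant from the miR-34a median, left out, r was -0.19. With libraries scaled by total counts alone, the sign turned (rho = 0.092). miR-34b-5p, which shares the seed of miR-34a, had rho = 0.47 with it (permutation p = 0.0545; adjusted p = 0.388 over 570 miRNAs, with no filter on low values) and r = 0.42 (permutation p = 0.0857), or 0.44 without the same 2 strains.

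Of the other products of the chromosome 9 locus, miR-34b-3p and miR-34c* had their highest level in the same pool as miR-34c, and miR-34b-5p did not. In strain 23, where miR-34c was highest, miR-34b-3p was highest too, with 4.36 CPM from 48 reads against 1.78 CPM in the second pool. miR-34c* was also highest there, with 3.00 CPM from 33 reads against 1.78 CPM. The second pool was strain 13 for all 3, but for the low rows only narrowly: strain 14 had 1.69 CPM of miR-34b-3p and strain 22 had 1.67 CPM of miR-34c*, with overlapping Poisson intervals. Under total counts alone the second pool was strain 28 for miR-34b-3p and strain 22 for miR-34c*, and under upper quartile scaling it was strain 14 for miR-34b-3p. miR-34b-5p had 4.19 CPM in strain 23 and 2.18 CPM in strain 13, inside its range over the other pools (1.16 CPM in strain 10 to 5.49 CPM in strain 21). Over 18 strains miR-34c correlated with miR-34c* at rho = 0.61 (permutation p = 0.00886) and r = 0.83 (permutation p = 0.00025), and r was 0.41 without strains 13 and 23. It correlated with miR-34b-3p at rho = 0.49 (permutation p = 0.0381) and r = 0.71 (permutation p = 0.00559). With strains 20 and 23, the 2 most distant from the miR-34b-3p median, left out, r was 0.55. miR-34b-3p and miR-34c*, which share a seed and 17 of 22 positions, had rho = 0.72 (permutation p = 0.001) and r = 0.81 (permutation p = 0.00029), or 0.70 without strains 20 and 23. Adjusted over 570 miRNAs, none of the 3 rho passed 0.05 (adjusted p = 0.236, 0.347 and 0.285), and none of the 3 r did (adjusted p = 0.142, 0.596 and 0.165). Without strain 23 rho was 0.53, 0.40 and 0.67. For miR-34b-5p, rho with miR-34c was -0.075 (permutation p = 0.766; r = -0.012, permutation p = 0.962, and 0.026 without strains 10 and 20). With miR-34b-3p, the other arm of its own hairpin, rho was 0.032 (permutation p = 0.903; r = 0.23, permutation p = 0.365, and 0.045 without strains 10 and 20). The sign of both turned under other settings, to 0.35 for miR-34c without strains 10, 13, 14 and 20 and to -0.066 for miR-34b-3p without strain 23. These rows hold 3 to 68 reads a library. Counting error alone gives miR-34b-5p an SD of 0.20 and miR-34b-3p one of 0.23 log2, against observed SDs of 0.46 and 0.41. For miR-34c*, with 4 to 33 reads a library, it gives 0.23 against an observed 0.34. In all, 10 pairs of rows were compared.

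**Figure D3:**
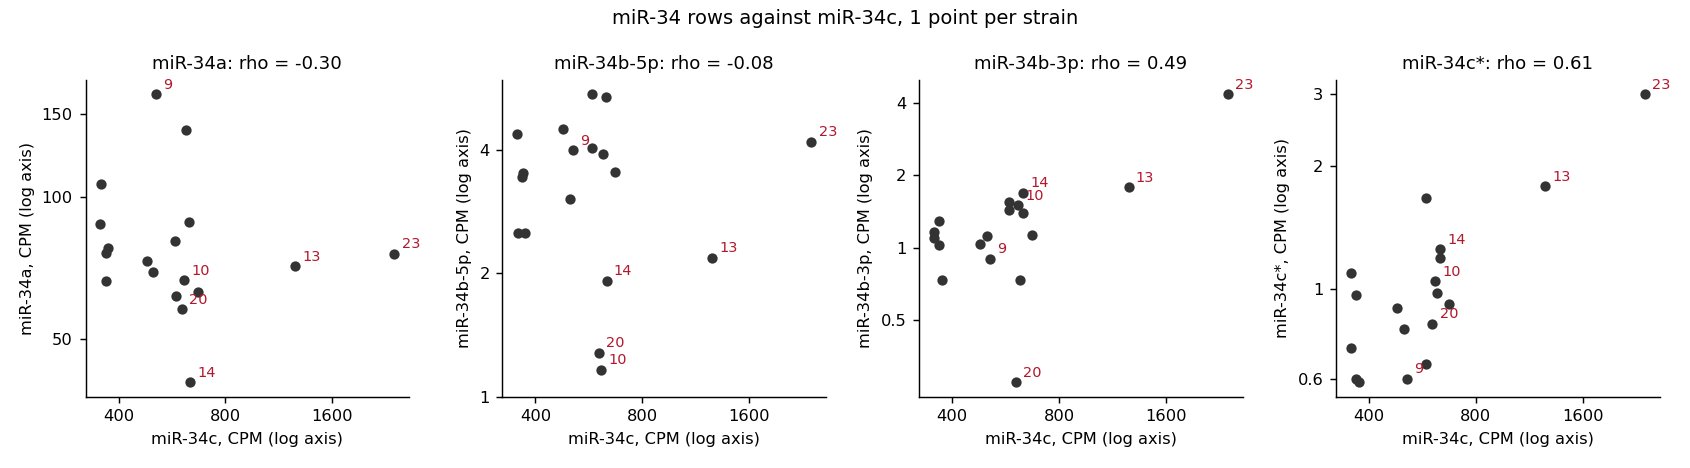
miR-34a, miR-34b-5p, miR-34b-3p and miR-34c* (CPM, log axes) against miR-34c (CPM, log axis) in 18 strains, with strains 9, 10, 13, 14, 20 and 23 numbered. Strains 13 and 23 lie at the upper right for miR-34b-3p and miR-34c*, where rho is 0.49 and 0.61, and strains 10 and 20 lie at the bottom for miR-34b-5p.

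The miR-34c hairpin was counted almost wholly on 1 arm, and the miR-34b hairpin on both. miR-34c had 325 times (strain 27) to 888 times (strain 21) the reads of miR-34c*, so that the star arm made up 0.112 to 0.307% of the hairpin's counted reads. For miR-34b the 5p arm had 643 reads and the 3p arm 253 over all libraries, and the 5p arm was ahead in 16 of 18 pools. The 3p arm made up 15.8% of the miR-34b reads in strain 7 (Wilson interval 5.52 to 37.6%), 56.5% in strain 10 (36.8 to 74.4%) and 51.1% in strain 23 (41.1 to 60.9%). It made up 46.9% in strain 14 (30.9 to 63.6%) and 45.0% in strain 13 (30.7 to 60.2%). In strains 10, 13, 14 and 23 the interval thus held equal reads on both arms. Strains 10, 13 and 14 are among the 4 libraries that stand apart, and the other, strain 20, had 17.6%. The part of library differences in these shares was not tested, and the shares compare reads and not molecules. miR-34c outnumbered both miR-34b arms together by 65.0 times (strain 27) to 388 times (strain 20), although the hairpins share a transcript.

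miR-34b-5p was lowest in the libraries that stand apart. It had 1.16 CPM in strain 10, 1.28 CPM in strain 20, 1.92 CPM in strain 14 and 2.18 CPM in strain 13, which were its 4 lowest pools, against 2.51 to 5.49 CPM in the other 14. Without these 4, its SD over strains was 0.27 in place of 0.46 log2. Its rho with the scaling factor of the library was 0.63 (permutation p = 0.00565, adjusted p = 0.0565 over 10 relations; r = 0.78, permutation p = 0.00015, and 0.74 without the 2 strains farthest from the median factor). The part of library differences in the level of miR-34b-5p was not tested. For miR-34a, 2 of its 4 lowest pools (strains 14 and 20) were in that set. For miR-34c none were, and its SD without the 4 libraries was 0.71 log2.

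Other miRNAs were then compared with miR-34a and miR-34c over the 18 strains to find those most like them, with a call at an adjusted p under 0.05 over all miRNAs tested. With miR-34a, 1 of 280 miRNAs was called (0.357% of those tested; 49 at an unadjusted p under 0.05; 0 by Pearson r). This was miR-186*, with rho = 0.79 (adjusted p = 0.0476), which was highest at 24.9 CPM in strain 9 and lowest at 9.71 CPM in strain 14, the strains with the highest and lowest miR-34a. The major arm of the same hairpin, miR-186, came next with rho = 0.75 (adjusted p = 0.0691), then miR-99a with rho = 0.74 (0.0691), miR-125a-5p with 0.72 (0.0861) and miR-342-3p with 0.69 (0.103). miR-99a and miR-125a are known as family members encoded near let-7 miRNAs, and miR-342 lies in an intron of Evl. The most opposed were miR-152 with rho = -0.65, miR-378 with -0.64, miR-130b with -0.62, miR-320 with -0.61 and miR-382 with -0.59 (adjusted p of 0.106 to 0.148). miR-378, a miRNA from an intron of Ppargc1b, is known from oxidative metabolism, and miR-152 is a relative of the abundant miR-148a. The call of miR-186* was kept when strain 2, 7, 11, 16, 18, 22 or 25 was left out, and lost when any of the other 11 strains was left out, so it rests on a narrow margin. With total counts alone, 123 of 281 were called.

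With miR-34c, 0 of 280 miRNAs were called (0% of those tested; 50 at an unadjusted p under 0.05; 0 by Pearson r). The most alike were miR-143, a miRNA of smooth muscle and fibroblasts, with rho = 0.75 (permutation p = 0.0007, adjusted p = 0.142), miR-380-5p of the imprinted Dlk1-Dio3 region with 0.72, miR-421 with 0.67, miR-217 with 0.60 and miR-195 with 0.60. The most opposed were miR-297c with rho = -0.70, miR-18a with -0.67, miR-19a with -0.64, miR-106b with -0.64 and miR-151-5p with -0.62. miR-18a and miR-19a belong to the growth-promoting miR-17-92 cluster, and miR-106b to its relative on another chromosome. The clusters did not run 1 way. Of the first, miR-19b, miR-20a and miR-92a had rho = -0.60, -0.55 and -0.36, but miR-17 had 0.046 and miR-20a* 0.60. In the second, miR-25, miR-93 and miR-106b* had rho = 0.25, 0.18 and 0.22. miR-143 had 43109 CPM in strain 23 and 34759 CPM in strain 13, within its range over all pools of 15247 CPM in strain 3 to 59872 CPM in strain 14. miR-145, also a miRNA of smooth muscle, had rho = -0.23 with miR-34c (permutation p = 0.354, adjusted p = 0.604). Of the 4 tested miRNAs of the mesenchymal list, which holds both, 3 had a positive rho (median 0.25). Under upper-quartile scaling 10 miRNAs were called, miR-143 among them (rho = 0.80), and with strain 23 left out 1 was called, miR-2141 (rho = 0.83). miR-106b had rho = 0.69 with miR-34a (adjusted p = 0.103) and -0.64 with miR-34c (adjusted p = 0.175), and the difference was not tested.

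Further miRNAs linked to p53 in published work were read from the same comparison. Of the list of 14, 12 were measured and tested: miR-107, miR-192, miR-194, miR-215, miR-143, miR-145, miR-15a, miR-16, miR-200c, miR-141, miR-22 and miR-205. None of the 12 was called with miR-34a and none with miR-34c. Over all miRNAs, 1 of 280 was called with miR-34a (0.357%) and 0 of 280 with miR-34c (0%). The absence of calls is therefore nothing particular to this list. The median rho was -0.08 with miR-34a, against -0.00 over all 280, and 4 of 12 were above 0. It was 0.22 with miR-34c, against -0.00 over all 280, and 7 of 12 were above 0. The highest with miR-34a was miR-15a, which shares the Dleu2 transcript with a copy of miR-16, at rho = 0.53 (permutation p = 0.0247, adjusted p = 0.193). With miR-34c it had rho = -0.61 (permutation p = 0.00832, adjusted p = 0.175). miR-194, a direct p53 target in human cells, had rho = 0.43 with miR-34a (adjusted p = 0.335) and -0.59 with miR-34c (adjusted p = 0.175). miR-192, which shares a transcript with miR-194, had -0.32 and 0.28 (adjusted p of 0.472 and 0.514).

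**Figure D4:**
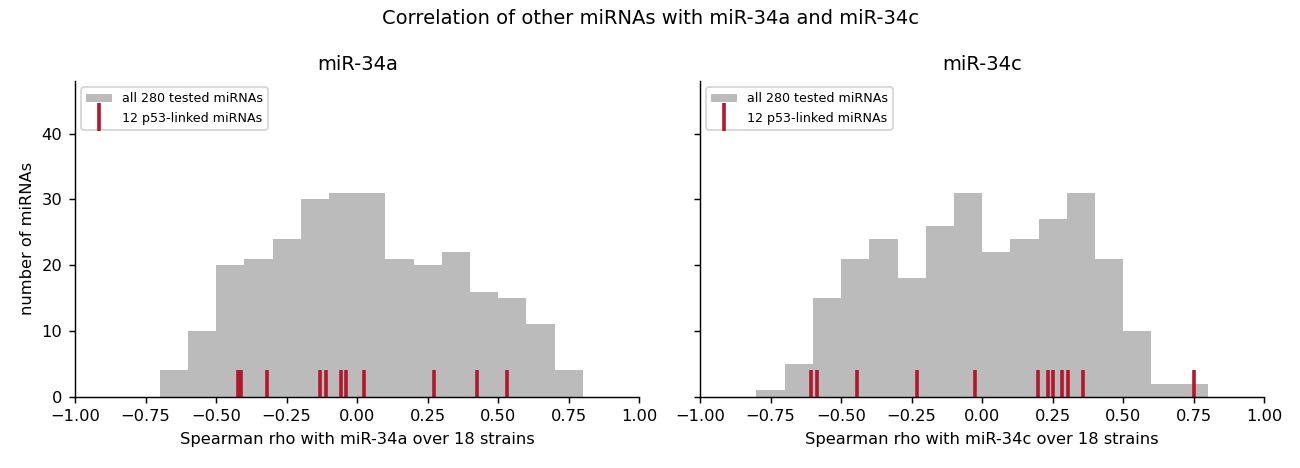
Number of miRNAs (of 280) by Spearman rho with miR-34a (left) and with miR-34c (right) over 18 strains; red ticks are the 12 tested p53-linked miRNAs. The ticks spread from -0.42 to 0.53 for miR-34a and from -0.61 to 0.75 for miR-34c.

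The same comparison was made for the arms of miR-34b after the data had been seen. With miR-34b-3p, 0 of 281 miRNAs were called (0%; 22 at an unadjusted p under 0.05; 0 by Pearson r). With miR-34b-5p, 12 of 281 were called (4.27%), 6 with a positive rho (2.14%) and 6 with a negative one (2.14%), and 77 by Pearson r (27.4%). The positive set was led by miR-145 (rho = 0.79, adjusted p = 0.0169), a miRNA of smooth muscle that p53 helps to mature, and also held miR-24-1*, miR-24-2*, miR-22*, miR-331-3p and miR-21*. Of the 12 p53-linked miRNAs tested, 5 had a positive rho with miR-34b-5p (median -0.21), and miR-145 was the only 1 called. miR-143, on the same list and also of smooth muscle, had rho = -0.33 (adjusted p = 0.35). The negative set was miR-1968, miR-196b, miR-181d, miR-152, miR-30e* and miR-676*. Without strains 10, 13, 14 and 20, which had the lowest miR-34b-5p, 0 were called, as without strain 10 or strain 13 alone. The count was 3 without strain 14 or strain 20, 4 without strain 28, 6 without strain 9, 11, 21 or 25, 7 without strain 3 or 22, and 20 without strain 23.

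miRNAs of other cell types were set beside the family. miR-449a, the seed relative from multiciliated cells and testis, was the only miR-449 row. It had 0 to 10 reads a library and a highest level of 0.647 CPM in strain 16. It had 0 reads in strain 10, which allows up to 0.348 CPM (3 reads), and 0.546 CPM from 6 reads in strain 23. The testis X cluster, miRNAs of male germ cells, summed to 35.2 CPM in strain 23 (388 reads in 17 of 17 distinct rows), the pool with the highest miR-34c. It was as high in strain 2, at 36.2 CPM, while strain 16 had 22.2 CPM and strain 21 had 8.84 CPM. It was at 2.18 CPM or less in the other 14 pools, and at 1.69 CPM in strain 13, the second highest pool for miR-34c. miR-34c had 501 CPM in strain 2, 367 CPM in strain 16 and 578 CPM in strain 21. High testis-linked miRNAs thus went with a high miR-34c in 1 of these 4 pools, and their part in the level of strain 23 was not tested. In strain 9, highest for miR-34a, the skeletal muscle miRNAs (miR-1, miR-133a, miR-133b and miR-206) were at their lowest sum, 22451 CPM, and in strain 14, lowest for miR-34a, at their highest, 302958 CPM. All 4 had a negative rho with miR-34a (median -0.42), and none was called. The erythroid miRNAs (miR-144, miR-451 and miR-486) ran the same way, with their lowest sum, 207 CPM, in strain 9 and their highest, 808 CPM, in strain 14. All 3 had a negative rho with miR-34a (median -0.082). The endothelial, mesenchymal and liver lists also had their highest sums in strain 14, at 22294, 60942 and 375 CPM. The neural list had its highest sum, 8298 CPM, in strain 9, against a median of 1427 CPM over the pools. Strain 14 had the lowest scaling factor (0.671), which raises its CPM, and the sums of these lists are given under 1 scaling only. The part of these cell types in the level of miR-34a was not tested. Of the leukocyte, endothelial, erythroid, mesenchymal, basal epithelial, epithelial, neural and liver lists (24 tested miRNAs), none was called with miR-34a or with miR-34c. Over all miRNAs, 1 of 280 was called with miR-34a (0.357%) and 0 of 280 with miR-34c (0%). The absence of calls is therefore nothing particular to these lists.

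**Figure D5:**
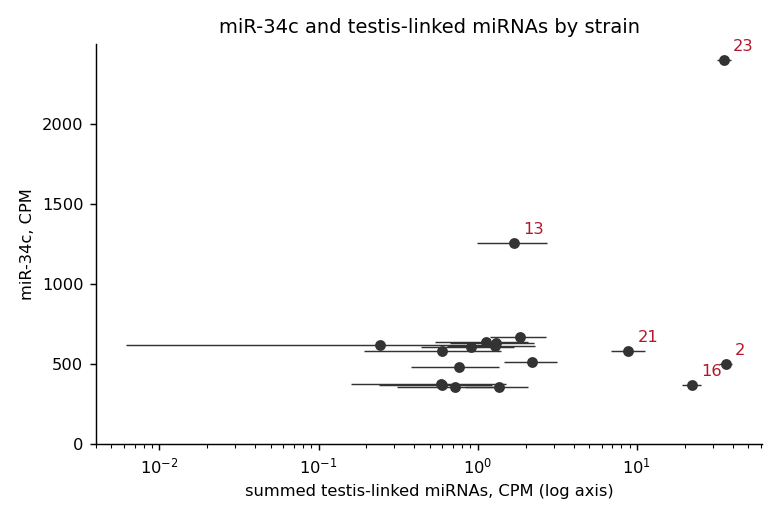
miR-34c (CPM) against the summed testis-linked miRNAs (CPM, log axis) in 18 strains; horizontal bars are exact 95% Poisson intervals of the summed reads. Strains 2 and 23 have like sums (36.2 and 35.2 CPM) and miR-34c of 501 and 2395 CPM.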

How the data were processed

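Snap-frozen mammary tumours gave RNA by the mirVana kit, per the labels' protocols, and 18 small RNA pools were sequenced. The authors deposited log2 values of 583 miRNA rows; BWA and mm9 are named, per the submitters' processing notes, and the counter and annotation were not given in the sources used here. Raised from the log scale, the deposited values are whole multiples of a constant particular to each library (100% of 3818 values of up to 50 reads, within 0.006 log2; constants 0.999 to 1.39), so reads were recovered, those of abundant miRNAs only to within the rounding of the log2 values to 2 decimals. In strain 25 the constant is near 1 and a single read cannot be told from 0.

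Rows identical in every library were counted once (571 left). Libraries (4357337 to 14946546 reads) were scaled by the TMM method (30% and 5% trimmed), with a pseudocount of 1 CPM before log2, which understates changes of low rows. The 281 rows averaging 10 CPM or more were tested. Correlations used 100000 permutations of the strains and Benjamini-Hochberg adjustment over all rows tested; the scan was tested on simulated data. Read intervals cover counting error only. Strain is confounded with pool and library, and no batch is given in the labels. Correlation p-values come from shuffling the strains, which treats the pools as interchangeable although 4 libraries stand apart. The p-value of the ratio comes from random signs per strain. Alternatives were other scalings, filters, pseudocounts, Pearson r, identical rows all counted, and strains left out. The named miRNAs are the members, miR-449 rows, the 5 highest and 5 lowest rho with miR-34a and miR-34c, and the p53-linked list; miRNAs named with miR-34b-5p, and testis, muscle and other cell type sums by strain, were chosen after their values were seen. Members, lists and the 4 libraries left out were chosen with earlier results of these data known. Python 3.11.15, numpy 2.4.6, pandas 2.3.3, scipy 1.17.1 and matplotlib 3.10.9 were used.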

Additional observations from a re-analysis of the deposited data

How the results depend on the processing

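The ratio of miR-34a to miR-34b and miR-34c kept its sign and its call in all alternatives run. These left out strains, used miR-34c alone or added miR-34c*. They could turn neither the sign nor the call, because the log2 ratio was below 0 in 18 of 18 pools, so they are no check of it. The median levels moved by less than the SD over strains under other scalings. Counts of correlated miRNAs depended most on the processing; the causes were not tested. With miR-34a (1 as reported) they were 123 under total counts alone, 12 with identical rows all counted and 0 under median of ratios, under upper quartile, with no filter, at 100 CPM, without 4 or 5 strains and by Pearson r, and 0 to 15 with single strains left out. With miR-34c (0) they were 10 under upper quartile scaling, 1 without strains 10, 13, 14 and 20, and 0 to 1 with single strains left out. With miR-34b-5p (12) they were 127 under total counts alone, 19 under median of ratios, 2 under upper quartile, 4 with no filter, 6 at 100 CPM, 77 by Pearson r, 0 without the 4 or 5 strains and 0 to 20 with single strains left out. With miR-34b-3p (0) there was 1 under total counts alone. The rho of miR-34a with miR-34c turned to 0.092 under total counts alone. That of miR-34c with miR-34b-5p turned to 0.38 there, to 0.35 without strains 10, 13, 14 and 20 and to 0.35 without these and strain 28, and lay between -0.17 and 0.044 with single strains left out. That of miR-34b-5p with miR-34b-3p turned to -0.040 under median of ratios and -0.066 without strain 23, and lay between -0.20 and 0.15 with single strains left out. The SD of miR-34a was 0.65 under total counts alone, where that of miR-34b-5p was 0.65. The SD of miR-34b-5p was 0.22 at a pseudocount of 5 CPM and 0.27 and 0.26 without the 4 and 5 strains. That of miR-34b-3p was 0.52 at a pseudocount of 0.5 CPM and 0.17 at 5 CPM. With single strains left out, SDs were 0.38 to 0.48 for miR-34a, 0.41 to 0.48 for miR-34b-5p, 0.28 to 0.43 for miR-34b-3p and 0.46 to 0.70 for miR-34c. With another random seed for the permutations, a check added after seeing the data, the counts were 1, 0, 11 and 0 for miR-34a, miR-34c, miR-34b-5p and miR-34b-3p. Depth limits both miR-34b arms and miR-34c*, at 3 to 68 reads a library. No paired analysis was possible because every strain has a single library.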
